A study of Homo sapiens with 12 samples.

Results

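The genes described here are 36 that build, sense and clear the protein-folding compartment of the cell, the endoplasmic reticulum (ER). They comprise 4 genes of stress sensing (3 sensors and the transcription factor XBP1), 11 chaperones and co-chaperones, 5 disulfide isomerases, 7 translocation genes, 8 degradation genes and 1 export coat gene. The 4 genes of stress sensing, XBP1 included, are called sensor genes below, or sensors in figures. They were picked by symbol, and among probe sets annotated with exactly 1 symbol, that with the highest 12-array mean was taken for each gene. Of the 36 genes, 33 had such a probe set. PDIA5, SEC61G and SYVN1 had none. DERL3 stayed between 4.04 and 5.35 log2 units and did not pass the filter, which asked for at least 3 arrays at 5 log2 units. This left 32 members among the 10050 genes tested.

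The cells were HK-2, an immortalised line derived from human renal proximal tubular epithelium, grown in a defined medium with epidermal growth factor, hydrocortisone, insulin, transferrin and selenite. Cells near confluency received a compound labelled Ra for 12 h or 48 h, and the control cells of each time received vehicle. The labels name no genetic change in any group, and the 4 groups share the medium and differ in the compound and the time. Each group had 3 arrays of total RNA, which the labels call biological replicates. The groups model 1 cell line in culture, and neither the identity nor the dose of Ra was given in these sources. The values are GCRMA expression values on the log2 scale, so 1 unit is a 2-fold difference, and the number of arrays limits their precision.

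Proteins that enter the ER pass the SEC61 channel, lose their signal peptide, fold with the help of HSPA5 (BiP), its co-chaperones, the lectin chaperones and the disulfide isomerases, and leave in COPII vesicles. Chains that fail to fold are drawn back to the cytosol by the SEL1L and SYVN1 complex and degraded. When unfolded chains build up, the sensors ERN1 (IRE1), EIF2AK3 (PERK) and ATF6 start the unfolded protein response, in which XBP1, ATF6 and ATF4 raise transcription of these same genes. Secretory and transporting epithelia such as the renal tubule depend on this pathway for their membrane proteins.

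The promoters of several members carry the element through which that response is known to act. The 250 bases upstream of each annotated start were searched on both strands, in RefSeq windows of build GRCh38.p14, for the ER stress response element (ERSE: CCAAT, 9 bases, CCACG), ERSE-II (ATTGG, 1 base, CCACG), the unfolded protein response element (UPRE: TGACGTGG) and the CEBP-ATF element (CARE: TGATGNAA). A window was held for 32 of the 36 members, and not for PDIA3, DERL1, DERL3 and SEC24D. The stretches below come from the 5 members that carried an ERSE or ERSE-II and passed the test at 48 h, and from SDF2L1 and HYOU1, which have the shorter ERSE-II once and 2 times. Each is written 5′ to 3′ on the strand of its gene, with the fixed letters of the element in capitals. CGTGG ahead of ATTGG is the ERSE read on the other strand, and CGTGG ahead of CCAAT is the ERSE-II read on the other strand.
HSPA5, chr9:125241376-125241424, minus strand: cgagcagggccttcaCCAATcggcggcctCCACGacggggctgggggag
XBP1, chr22:28800588-28800636, minus strand: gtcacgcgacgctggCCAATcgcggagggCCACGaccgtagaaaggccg
PDIA6, chr2:10812838-10812886, minus strand: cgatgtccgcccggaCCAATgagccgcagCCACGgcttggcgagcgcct
CALR, chr19:12938369-12938417, plus strand: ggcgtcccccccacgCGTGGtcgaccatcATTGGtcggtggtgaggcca
HERPUD1, chr16:56932010-56932050, plus strand: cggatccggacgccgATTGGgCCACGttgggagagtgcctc
SDF2L1, chr22:21642099-21642139, plus strand: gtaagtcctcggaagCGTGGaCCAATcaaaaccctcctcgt
HYOU1, chr11:119057259-119057408, minus strand: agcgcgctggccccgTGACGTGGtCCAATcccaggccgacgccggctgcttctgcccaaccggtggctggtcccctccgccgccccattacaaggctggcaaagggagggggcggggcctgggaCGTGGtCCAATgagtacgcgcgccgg
The element of HSPA5 lies 66 to 48 bases upstream of its start and that of HERPUD1 117 to 107 bases upstream. In HYOU1 the first ERSE-II overlaps the only UPRE match of that window, so the capitals there run together.

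An ERSE was found in 7 of the 32 members with a window (21.9%): HSPA5, HSP90B1 with 2 matches, CALR, CANX, CRELD2, PDIA6 and XBP1. Among all 27305 genes in the table, 25 held one (0.0916%). ERSE-II was found in HERPUD1, HYOU1 and SDF2L1, which is 9.38% of the members against 0.0659% of all genes. UPRE matched in HYOU1 and SSR3 (6.25%, against 0.78% of all genes), and CARE only in HERPUD1 (3.12%, against 3.89%). The short core CCACG, which is part of both ERSE forms, was in 24 of the 32 members (75%) and in 37.5% of all genes. Among 178 other genes of ER folding, transport and stress signalling with a window, 2 held an ERSE (1.12%) and 0 an ERSE-II, while 11 held a UPRE (6.18%) and 113 the core (63.5%). These letters describe the windows and do not show binding. Because the members were picked as genes of this pathway, a higher share than over all genes is partly built in and was not tested.

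The arrays were alike in scale with 1 exception. Ra 48 h replicate 2 had a 75th percentile of 6.30 over all probe sets, where the remaining 11 arrays had 7.01 to 7.21, and a median tested gene of 7.95, where they had 8.66 to 8.79. It was the lowest of the 3 Ra arrays of 48 h in 88.9% of all genes tested, so member calls and list medians at 48 h are also given without it. The signal of the ACTB control probe sets, 3′ minus 5′, ran from 0.79 to 1.19 log2 units over the 12 arrays. Epithelial markers were present (5 of 5 passed the filter, among them KRT8, KRT18 and CDH1), whereas only PAX8 and CDH16 of 13 proximal tubule markers did. Of other cell types, 3 of 8 fibroblast, 2 of 5 podocyte, 0 of 6 endothelial, 0 of 6 distal nephron and 0 of 6 immune markers passed, and of all these 0 were called with Ra at 12 h and 1 epithelial marker at 48 h. Only 11 of the proximal tubule, 4 of the podocyte, 5 of the distal nephron and 4 of the immune markers had a probe set of 1 symbol. The rest of those lists could not be assessed.

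At 48 h, Ra-treated cells had lower mean RNA levels than vehicle cells for 31 of the 32 members tested. Of 32 members, 10 fell and 1 rose in a limma model of the 4 group means over all 12 arrays at an adjusted p under 0.05. For Ra against control, fell and rose here mean lower or higher than in control cells of the same time, not a change over time. Over all genes tested, 9.56% fell and 3% rose by the same rule. The 10 were the sensor genes ERN1, EIF2AK3 and XBP1, the chaperones HSPA5, DNAJB9 and CALR, the isomerase PDIA6, the degradation genes HERPUD1 and SEL1L, and SEC24D. The only member that rose was SPCS3, a subunit of the signal peptidase. The median difference over the members was -0.96 log2 units, and that of all genes was -0.20. In RNA from whole cultures, fewer cells of a kind and less RNA per cell cannot be told apart.

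These calls rest on a spread pooled over both times and on single arrays. A fit on the 6 arrays of 48 h alone called 0 of 32 members and 0 of all genes, with a lowest member adjusted p of 0.193 by limma. Without Ra 48 h replicate 2, 5 of 32 members were lower (ERN1, EIF2AK3, XBP1, HSPA5 and SEC24D) and 1 higher (SPCS3), where 8.13% of all genes were lower and 11.2% higher. These 6 members are about the share of all genes called in that fit (19.3%). The median without that array was -0.73 over the members and 0.01 over all genes. Without control 48 h replicate 1 or replicate 2 the count was 0, where 1.17% and 0.448% of all genes were called, and without control 48 h replicate 3 it was 29, where 19.7% were. Leaving out Ra 48 h replicate 1 gave 20 members and 27.1% of all genes, and leaving out Ra 48 h replicate 3 gave 6 members and 6.09%. Any single 12 h array left out gave 7 members, with 6.89% to 7.53% of all genes. The same 31 members had the lower mean in each of these.

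**Figure D1:**
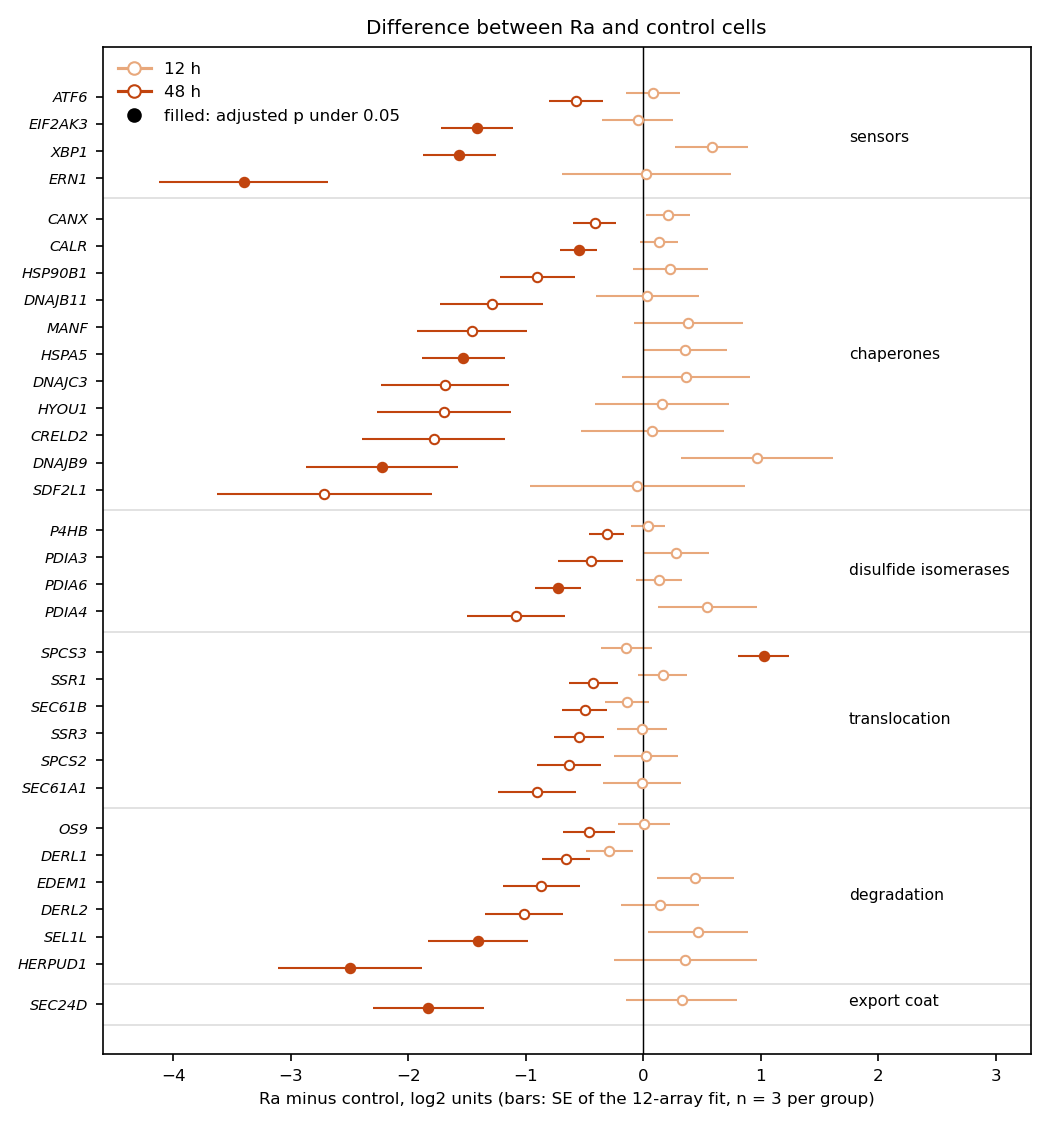
Ra minus control at 12 h and at 48 h for the 32 tested members by role, in log2 units, with bars of 1 SE of the 12-array fit (n = 3 per group) and filled symbols for an adjusted p under 0.05. At 48 h all points but SPCS3 lie left of 0, from -0.31 for P4HB to -3.40 for ERN1, and at 12 h no point is filled.

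ERN1, the kinase and endoribonuclease that splices XBP1 mRNA, showed the largest difference of all members. Its values, given for replicates 1 to 3 here and below, were 10.35, 10.61 and 9.34 log2 units in control cells at 48 h and 9.01, 5.44 and 5.65 with Ra at 48 h. They were 6.52, 6.54 and 6.08 in control cells and 6.54, 6.11 and 6.56 with Ra at 12 h. All 3 control arrays of 48 h thus stood above every other array, and Ra 48 h replicate 1 lay within 0.5 log2 units of the lowest of them. At 48 h ERN1 was 10.6-fold lower with Ra than in control cells. The difference was -3.40 ± 0.72 log2 units (SE, n = 3 per group, limma adjusted p = 0.0174). Without Ra 48 h replicate 2 the difference was -2.77 ± 0.75 (limma adjusted p = 0.0305).

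XBP1 encodes the transcription factor made after that splicing, and the splicing itself was not analysed here. XBP1 read 11.83, 12.02 and 11.34 in control cells at 48 h and 10.97, 9.41 and 10.12 with Ra at 48 h, without overlap. Its 12 h values were 9.88, 9.50 and 9.78 in control cells and 10.39, 10.24 and 10.29 with Ra, so at 12 h every Ra array was above every control array and at 48 h every Ra array was below. The difference at 48 h was -1.56 ± 0.31 log2 units (SE, n = 3 per group; limma adjusted p = 0.0143), and -1.19 ± 0.25 without Ra 48 h replicate 2 (limma adjusted p = 0.0137). XBP1 kept its call in 10 of 12 fits that left out 1 array, as did ERN1, EIF2AK3, SEC24D and SPCS3, and lost it without control 48 h replicate 1 or replicate 2.

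EIF2AK3, the kinase PERK that slows translation through eIF2α, read 10.79, 11.07 and 10.05 in control cells at 48 h. With Ra at 48 h it read 9.72, 8.55 and 9.40, all below the controls, and its 12 h values lay between 9.27 and 9.65 in both groups. EIF2AK3 fell by 1.41 ± 0.31 log2 units (SE over 3 arrays per group; limma adjusted p = 0.0186), and without Ra 48 h replicate 2 the difference was -1.07 ± 0.26 (limma adjusted p = 0.0208). ATF6, the membrane-bound factor released by cleavage in the Golgi, read 9.69, 9.42 and 8.81 in control cells and 9.03, 8.45 and 8.72 with Ra at 48 h. ATF6 read 8.62, 8.57 and 8.47 in control cells and 8.64, 8.74 and 8.53 with Ra at 12 h. The 48 h groups overlapped in ATF6, and its difference of -0.57 ± 0.23 did not pass (limma adjusted p = 0.105).

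Among the chaperones, all 11 had lower means with Ra at 48 h, and HSPA5, CALR and DNAJB9 passed the test. HSPA5 (BiP), the Hsp70 of the ER lumen that also holds the sensors inactive, read 15.67, 15.54 and 14.56 in control cells and 14.48, 13.06 and 13.64 with Ra at 48 h. Its 12 h values were 14.06, 13.23 and 13.82 in control cells and 14.26, 13.77 and 14.17 with Ra. The 48 h groups were separated by less than 0.1 log2 units, between control replicate 3 and Ra replicate 1. HSPA5 fell by 1.53 ± 0.35 log2 units, 2.89-fold (SE, n = 3 per group; limma adjusted p = 0.0224), and without Ra 48 h replicate 2 the difference was -1.20 ± 0.36 (limma adjusted p = 0.0428).

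DNAJB9 (ERdj4), a co-chaperone that brings clients to BiP, moved furthest of the called chaperones and also separated the groups at 12 h. Its control values at 48 h were 12.72, 12.54 and 9.99, and its Ra values were 10.72, 8.39 and 9.48. The groups overlapped through control replicate 3, which lay below Ra replicate 1. DNAJB9 fell by 2.22 ± 0.65 log2 units (SE over 3 arrays per group; limma adjusted p = 0.0437), a call kept in 2 of 12 fits that left out 1 array. CALR, the soluble lectin chaperone that binds trimmed glycans, read 11.96, 12.02 and 11.52 in control cells and 11.35, 11.15 and 11.34 with Ra at 48 h. CALR fell by 0.55 ± 0.16 (SE, n = 3 per group; limma adjusted p = 0.0436), also kept in 2 of 12, and its 12 h values spanned 11.27 to 11.67.

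SDF2L1, a partner of the co-chaperone DNAJB11, had the widest spread of the chaperones. It read 12.02, 10.97 and 7.37 in control cells at 48 h and 8.52, 6.33 and 7.38 with Ra, against 7.41 to 8.43 over the 6 arrays of 12 h. Control replicate 3 was thus about as low as the Ra arrays, and the difference of -2.71 ± 0.91 log2 units did not pass (limma adjusted p = 0.0665). CRELD2 and MANF, both small secreted proteins known to be induced by ER stress, differed by -1.78 and -1.46. HYOU1, the nucleotide exchange factor of BiP, differed by -1.70, DNAJC3 (p58IPK) by -1.69, DNAJB11 (ERdj3) by -1.29, HSP90B1 (GRP94) by -0.90 and the membrane lectin CANX by -0.41. None of these 7 passed, with limma adjusted p between 0.0572 for MANF and 0.139 for CANX.

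The 4 disulfide isomerases tested had a median difference of -0.59 log2 units, and of -0.44 without Ra 48 h replicate 2. PDIA6 read 13.61, 13.18 and 12.76 in control cells and 12.61, 12.11 and 12.65 with Ra at 48 h, and 12.63 to 12.87 over the 12 h arrays. It fell by 0.73 ± 0.19 log2 units without overlap (SE, n = 3 per group; limma adjusted p = 0.0344), a call lost without Ra 48 h replicate 2 (limma adjusted p = 0.0621). PDIA4 read 12.26, 10.90 and 10.01 in control cells and 10.44, 9.61 and 9.87 with Ra at 48 h. The groups overlapped in PDIA4, whose difference was -1.08 ± 0.42 (limma adjusted p = 0.0967). PDIA3, which works with the lectin chaperones, and P4HB, the founding isomerase of the family, differed by -0.45 and -0.31 and did not pass.

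The 6 translocation genes tested had a median difference of -0.52 log2 units (-0.34 without Ra 48 h replicate 2) and the only rise. SPCS3 read 10.42, 10.79 and 11.24 in control cells at 48 h and 11.55, 11.76 and 12.22 with Ra, while the 12 h arrays lay between 11.77 and 12.31. The control arrays of 48 h were therefore the low group. SPCS3 rose by 1.03 ± 0.22 log2 units with Ra (SE, n = 3 per group; limma adjusted p = 0.0174) and by 1.07 ± 0.24 without Ra 48 h replicate 2 (limma adjusted p = 0.0177), and 2 other probe sets of the gene gave 0.65 and 0.92. Its partner subunit SPCS2 differed by -0.63 and did not pass (limma adjusted p = 0.126).

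SEC61A1, the pore of the channel, read 12.46, 11.71 and 10.82 in control cells and 11.07, 10.18 and 11.02 with Ra at 48 h. Its 12 h arrays lay between 11.07 and 11.17, and its difference of -0.91 ± 0.33 at 48 h did not pass (limma adjusted p = 0.0847). SEC61B, a small subunit of the channel, differed by -0.50, and the translocon-associated subunits SSR3 and SSR1 by -0.55 and -0.42, again without passing.

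Of the 6 degradation genes tested, HERPUD1 and SEL1L passed, where 9.56% of all genes were lower. Without Ra 48 h replicate 2 or replicate 3, 0 of the 6 passed (8.13% and 5.24% of all genes lower). The count was also 0 without control 48 h replicate 1 (0.806%) or replicate 2 (0.279%). It was 4 without Ra 48 h replicate 1 (23.9%) or control 48 h replicate 3 (13.3%). HERPUD1, a membrane protein of the ligase complex, read 14.06, 13.74 and 12.01 in control cells at 48 h and 12.35, 9.73 and 10.25 with Ra. Its 12 h values were 10.58, 9.79 and 10.32 in control cells and 10.85, 10.30 and 10.62 with Ra, so all control arrays of 48 h and Ra 48 h replicate 1 lay above every 12 h array. HERPUD1 fell by 2.49 ± 0.61 log2 units, 5.63-fold (SE, n = 3 per group; limma adjusted p = 0.0255), and without Ra 48 h replicate 2 the difference was -1.97 ± 0.64 and did not pass (limma adjusted p = 0.0558).

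SEL1L, the adaptor that holds the ligase SYVN1 at the membrane, read 12.87, 12.03 and 10.59 in control cells and 10.88, 9.95 and 10.45 with Ra at 48 h. The groups overlapped through control replicate 3. SEL1L fell by 1.41 ± 0.43 log2 units (SE over 3 arrays per group; limma adjusted p = 0.0493), a call kept in 2 of 12 fits that left out 1 array. DERL1 and DERL2, channel-like membrane proteins of this route, differed by -0.66 and -1.02 (limma adjusted p = 0.0521 and 0.0619). The mannosidase-like EDEM1 and the lectin OS9, which sort glycoproteins for degradation, differed by -0.87 and -0.46 and did not pass.

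SEC24D, a cargo-binding subunit of the COPII coat, read 10.94, 10.50 and 9.16 in control cells at 48 h and 9.01, 7.22 and 8.87 with Ra. Its 12 h values were 8.69 to 8.85 in control cells and 8.84 to 9.30 with Ra, so Ra 48 h replicate 2 was the lowest of all 12 arrays. SEC24D fell by 1.83 ± 0.47 log2 units (SE over 3 arrays per group; limma adjusted p = 0.0306), and without that array the difference was -1.26 ± 0.40 (limma adjusted p = 0.0489). Over the members, every Ra array lay below every control array in 8 genes and above in 1, against 18.6% and 5.37% of all genes tested.

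**Figure D2:**
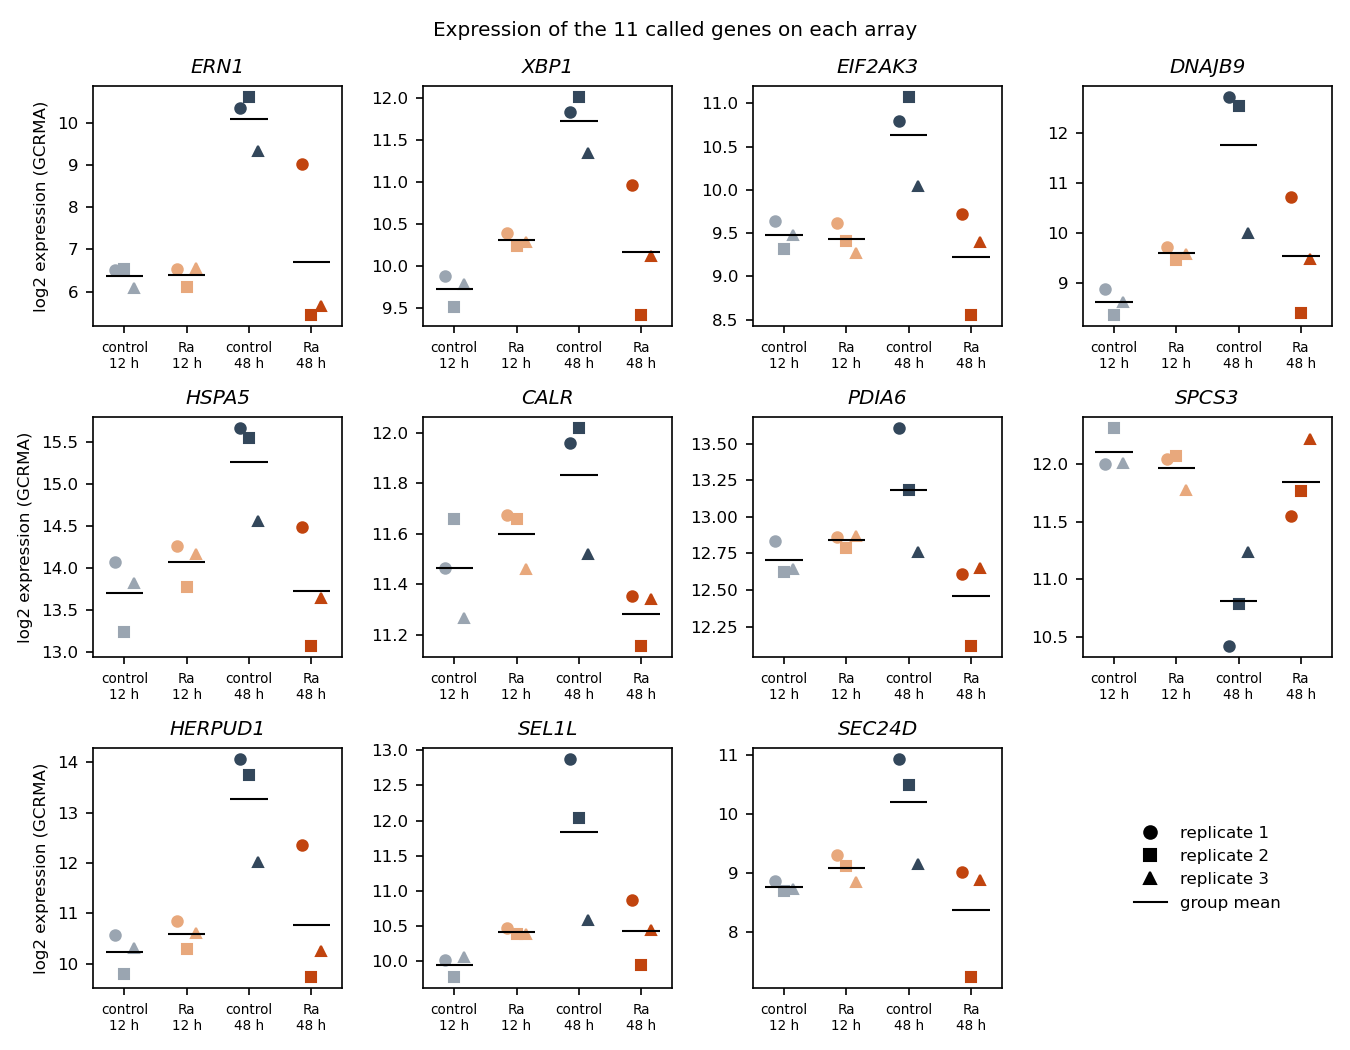
Log2 expression of the 11 members called at 48 h on each of the 12 arrays, with the replicate as symbol and the group mean as line (n = 3 per group). In 10 genes the control arrays of 48 h include the highest values, with replicate 3 (triangle) lowest of the 3 in each, and in SPCS3 they are the lowest group.

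At 12 h the members differed little between Ra and vehicle. The 12-array model called 0 of 32 members, with 0 at an unadjusted p under 0.05 and a lowest member adjusted p of 0.719 by limma, and it called 0.0299% of all genes. The spread at 12 h was smaller than at 48 h, and a fit on the 6 arrays of 12 h called 5 members, all higher with Ra. In that fit 7.34% of all genes were higher and 6.25% lower. Mean levels were higher with Ra in 25 of 32 members, with a median of 0.14 log2 units against 0.01 for all genes. Every Ra array lay above every control array in 10 members and below in 1 (SEC61B), against 18.4% and 16.9% of all genes.

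The 5 members were DNAJB9, PDIA4, XBP1, SEL1L and DNAJC3. DNAJB9 read 8.88, 8.35 and 8.62 in control cells and 9.73, 9.46 and 9.57 with Ra at 12 h, and its difference was 0.97 ± 0.15 log2 units, 1.96-fold (SE, n = 3 per group; limma adjusted p = 0.0108 in the 6-array fit). XBP1 differed by 0.59 ± 0.11 on the values given above (limma adjusted p = 0.0183 in the 6-array fit). In both genes the lowest Ra array exceeded the highest control array by at least 0.3 log2 units.

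PDIA4, an isomerase with several thioredoxin-like domains, read 9.47, 9.53 and 9.69 in control cells and 10.21, 10.11 and 10.01 with Ra at 12 h. It differed by 0.55 ± 0.09 (limma adjusted p = 0.0139 in the 6-array fit), but its other probe set gave -0.08. SEL1L read 10.01, 9.77 and 10.06 in control cells and 10.48, 10.39 and 10.38 with Ra, a difference of 0.47 ± 0.09 (limma adjusted p = 0.0219 in the 6-array fit), and 2 further probe sets of the gene gave 0.48 and -0.09. DNAJC3, a co-chaperone of BiP also known as an inhibitor of PERK, read 8.85, 8.72 and 8.80 in control cells and 9.26, 9.06 and 9.15 with Ra. It differed by 0.36 ± 0.09 (limma adjusted p = 0.0381 in the 6-array fit). The groups did not overlap in any of the 5 genes at 12 h.

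At 12 h same-numbered Ra and control arrays deviated together from their group means. Blocking on the replicate number in the fit of those 6 arrays gave 13 called members, 12 higher and 1 lower, where 23.4% of all genes were called. With replicate numbers blocked separately at 12 h and 48 h, the 12-array model called 0 members and 0 genes. Leaving out 1 of the 6 arrays gave 1 to 6 members without the block, where 2.92% to 13.8% of all genes were called. The count was 1 without Ra 12 h replicate 1 or replicate 2, where 3.3% and 2.92% of all genes were called, and 6 without Ra 12 h replicate 3, where 13.8% were.

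The effect of Ra at 48 h minus its effect at 12 h was tested in the 12-array model. It passed in 0 of 32 members, against 0.0199% of all genes. The median of this difference was -1.24 log2 units over the members and -0.19 over all genes. XBP1, higher with Ra at 12 h and lower at 48 h, had the lowest adjusted p, at a difference of -2.15 ± 0.44 (limma adjusted p = 0.076). DNAJB9, with the same pair of signs, differed by -3.19 ± 0.92 (limma adjusted p = 0.122). Without control 48 h replicate 3 the count was 21, where 5.69% of all genes passed. It was 8 without Ra 48 h replicate 1 and 1 without Ra 48 h replicate 2, where 10.4% and 3.18% of all genes passed.

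Vehicle cells themselves differed between the times, and this comparison shares its 48 h arrays with the one above. Of 32 members, 14 rose from 12 h to 48 h in control cells and SPCS3 fell, where 9.37% of all genes rose and 10.1% fell in the same 12-array model. All 4 sensor genes rose: ERN1 by 3.72 ± 0.72 log2 units (13.2-fold), XBP1 by 2.01 ± 0.31 (4.02-fold), EIF2AK3 by 1.16 ± 0.31 and ATF6 by 0.76 ± 0.23 (SE, n = 3 per group; limma adjusted p from 0.00274 for XBP1 to 0.0366 for ATF6). The chaperones DNAJB9 (3.14), HYOU1 (1.79), MANF (1.62), HSPA5 (1.55) and HSP90B1 (1.06) rose, as did PDIA4 (1.49), HERPUD1 (3.04), SEL1L (1.88), EDEM1 (1.28) and SEC24D (1.44), all in log2 units. SPCS3 fell by 1.29 ± 0.22 (limma adjusted p = 0.00361). The median was 1.10 over the members and 0.01 over all genes.

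Every control array of 48 h lay above every control array of 12 h in 16 members and below in 1, against 24.8% and 26% of all genes. A fit on the 6 control arrays called 11 members, 10 of them higher, where 16.6% of all genes were higher. Leaving out 1 array changed the count to between 6 and 28: it was 28 without control 48 h replicate 3, where 22.8% of all genes were called, and 6 without either other control array of 48 h, where 8.24% and 8.6% were. It was 9, 6 and 7 without control 12 h replicate 1, 2 or 3, where 10.2%, 8.95% and 7.84% were. In cells with Ra, the same interval gave 0 called members and 0 called genes overall in the 12-array model, with a median of -0.18 over the members and -0.21 over all genes. Every Ra array of 48 h lay below every Ra array of 12 h in 6 members and above in 0, against 17% and 2.49% of all genes. The 6-array fit of that interval called 0 members as well, and the lowest member adjusted p by limma was 0.352 over 12 arrays.

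The members' replicates differed most in control cells at 48 h. The median SD over the members was 0.68 log2 units in that group, against 0.22 for all genes. It was 0.14 in control cells at 12 h, 0.11 with Ra at 12 h and 0.44 with Ra at 48 h, where all genes had 0.12, 0.12 and 0.43. Of the 32 members, 19 were in the top 10% of all genes by SD in control cells at 48 h and 5 with Ra at 48 h. The array order below was noticed in these values and is described without a test.

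Control 48 h replicate 3 was the lowest of its group in 30 of 32 members, and replicate 1 the highest in 27. Over all genes the same held in 39.1% and 37.5%, and over the 640 genes with a control mean at least 1 log2 unit higher at 48 h than at 12 h it held in 74.5% and 63.6%. Replicates 1 and 2 lay above every 12 h array in 31 and 29 members, and replicate 3 in 11, against 35.9%, 32.5% and 26.5% of all genes. Among the 17 members with a control mean at least 1 log2 unit higher at 48 h, replicate 3 lay above every 12 h array in 41.2%, and among the 640 such genes in 83%. Replicates 1 and 2 lay above all 3 Ra arrays of 48 h in 31 members each, and replicate 3 in 8, against 40.2%, 37.9% and 31.5% of all genes. Among the Ra arrays of 48 h, replicate 1 lay above every 12 h array in 18 members, replicate 3 in 1 and replicate 2 in 0, against 31.3%, 18% and 4.07% of all genes. The ACTB 3′ minus 5′ signal was 1.19, 1.13 and 0.90 on the 3 control arrays of 48 h and 0.79, 1.13 and 0.91 on the Ra arrays, and its part in this order was not tested.

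**Figure D3:**
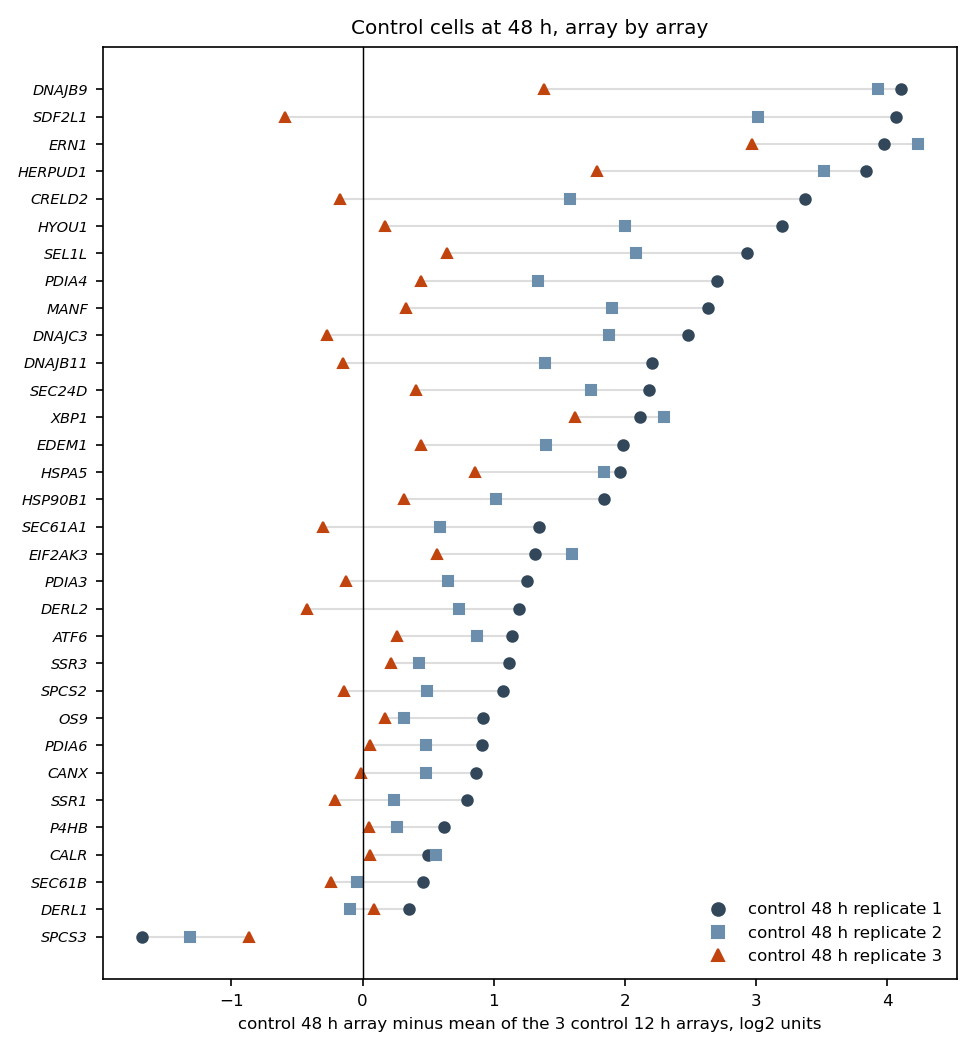
Each control array of 48 h minus the mean of the 3 control arrays of 12 h, in log2 units, for the 32 members in order of replicate 1. Replicate 3 (triangle) stays near 0 for most chaperones, at -0.59 for SDF2L1, and reaches 2.96 for ERN1, 1.78 for HERPUD1, 1.62 for XBP1 and 1.38 for DNAJB9.

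The order was not equal over the roles. Relative to control cells at 12 h, the mean level of the 11 chaperones was 2.47, 1.78 and 0.17 log2 units on the control arrays of 48 h, and 0.56, -0.62 and 0.06 on the Ra arrays of 48 h. The 4 sensor genes averaged 2.13, 2.25 and 1.35 on the control arrays and 1.15, -0.57 and -0.06 on the Ra arrays. Replicate 3 of the controls was far below replicates 1 and 2 in the chaperone mean and closer to them in the sensor mean, which ERN1 and XBP1 raised.

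Degradation genes averaged 1.87, 1.32 and 0.45 on the control arrays, isomerases 1.37, 0.68 and 0.10, and translocation genes 0.52, 0.07 and -0.26. For 14 tested genes of the PERK and ATF4 branch, none of them members, the same means were 2.18, 2.22 and 2.09 on the control arrays and 1.33, -0.53 and -0.20 on the Ra arrays. All 3 control arrays were thus alike in that branch, in contrast to the chaperones on the same arrays.

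Gene by gene, the rise on control replicate 3 was taken as a share of the mean rise on replicates 1 and 2. Only members with a mean rise of at least 1 log2 unit on replicates 1 and 2 entered. Because replicates 1 and 2 made that choice, a smaller rise on replicate 3 is partly built in. The share was 73.6% for XBP1 and 72.3% for ERN1. It was 48.5% for HERPUD1, 45.1% for HSPA5, 39% for EIF2AK3, 34.3% for DNAJB9 and 26.4% for ATF6, so the chaperone HSPA5 was above 2 of the 4 sensor genes. For HYOU1 it was 6.46%, and of these members CRELD2, DNAJB11, DNAJC3 and SDF2L1 were below the 12 h mean on replicate 3. Some members that did not enter, such as DERL2 (-0.42 log2 units) and SEC61A1 (-0.30), were below it too. Members with an ERSE or ERSE-II lay at both ends of this range, HERPUD1 and HSPA5 high, HYOU1 and SDF2L1 low.

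**Figure D4:**
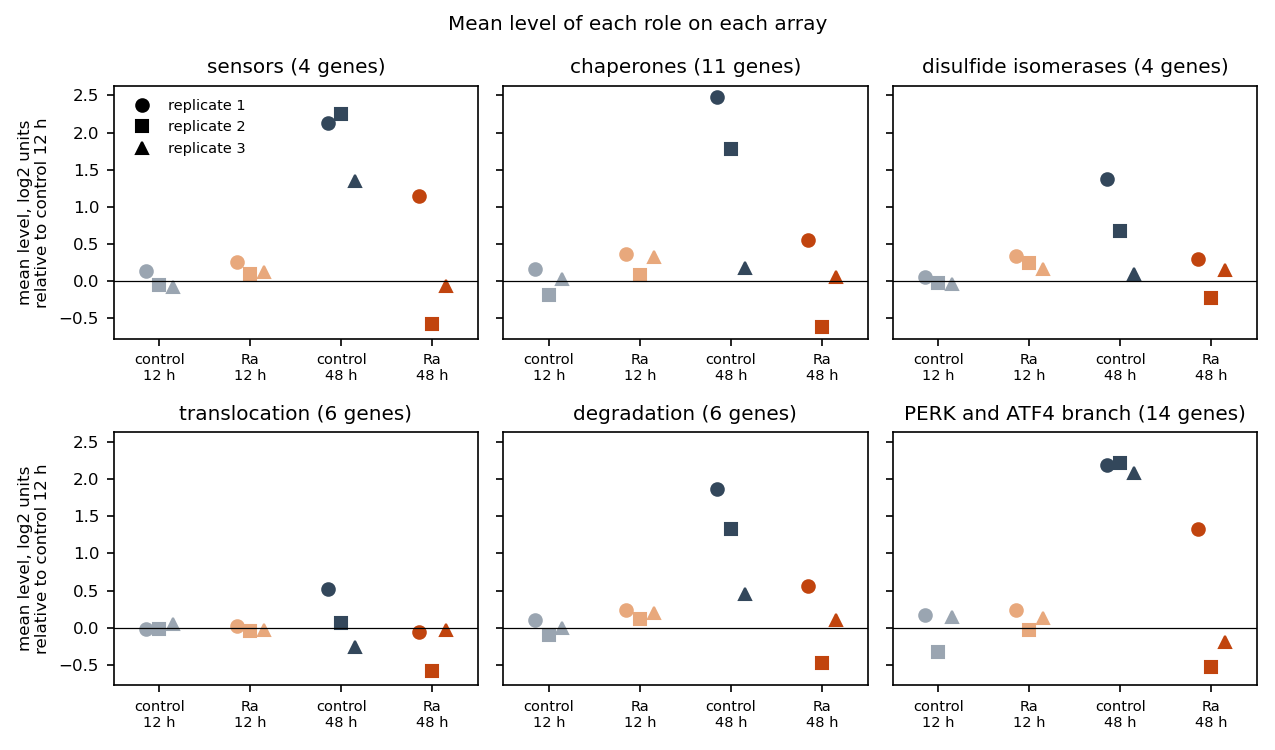
Mean log2 level of each role on each array relative to the mean of control cells at 12 h (SEC24D left out), with 14 genes of the PERK and ATF4 branch for comparison. Control 48 h replicate 3 is at 0.17 for chaperones, 1.35 for sensors and 2.09 for the PERK and ATF4 branch.

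Members with and without the promoter elements can be set side by side. The 10 tested members with an ERSE or ERSE-II had a median difference of -1.55 log2 units with Ra at 48 h, from -2.71 for SDF2L1 to -0.41 for CANX, and 5 were called. The 19 tested members with a window and no such match had a median of -0.91, from -3.40 for ERN1 to 1.03 for SPCS3, and 5 were called. The same model called 12.6% of all genes. Without Ra 48 h replicate 2 the medians were -1.19 and -0.71, with 2 and 3 called. Those counts are about the share of all genes called in that fit (19.3%). In control cells the medians of 48 h minus 12 h were 1.57 and 0.76. The ranges overlapped, and members such as ERN1, DNAJB9 and SEL1L moved without either element in the 250 bases searched. An ERSE was in 5 of the 11 chaperones and an ERSE-II in 2, while 0 of the 7 translocation genes held either. Element and role were therefore not separated in these medians.

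The other genes of the pathway were 204 in 7 lists, of which 188 were tested. With Ra at 48 h they gave 39 lower and 1 higher in the 12-array model, where 9.56% of all genes were lower and 3% higher. The median of the 188 was -0.43 log2 units. Without Ra 48 h replicate 2 they gave 28 lower and 11 higher with a median of -0.22, where 8.13% of all genes were lower and 11.2% higher. The PERK and ATF4 branch had the lowest median of the 7. Of its 14 tested genes 11 fell, and the median was -2.09. Every Ra array lay below every control array in 12 of them, against 18.6% of all genes. The stress-induced factors ATF3 and DDIT3 (CHOP) differed by -3.52 ± 0.57 and -3.41 ± 0.68, and asparagine synthetase ASNS by -3.12 ± 0.56 (SE, n = 3 per group; limma adjusted p = 0.00982, 0.0141 and 0.0109). Without Ra 48 h replicate 2, 9 of the 14 were called lower with a median of -1.61, where 8.13% of all genes were. Without control 48 h replicate 2, 1 of the 14 was, where 0.279% of all genes were.

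Genes of export, cargo receptors and retrieval came next, with 11 of 36 lower (against 9.56% of all genes) and a median of -0.51. They included MIA3, which loads collagen into COPII carriers (-1.29 ± 0.35), the coat subunit SEC23B (-1.21 ± 0.23) and the SNARE SEC22B (-1.12 ± 0.19; limma adjusted p = 0.0363, 0.0129 and 0.00982). Other degradation genes gave 5 of 31 lower with a median of -0.45, led by the ligase RNF185 (-1.17 ± 0.21), FAM8A1 (-1.0 ± 0.25) and UBXN8 (-0.92 ± 0.23; limma adjusted p = 0.0109, 0.0267 and 0.0291). Without Ra 48 h replicate 2, 6 export genes (16.7%) and 5 degradation genes (16.1%) were lower and 1 degradation gene higher. Over all genes 8.13% were lower and 11.2% higher, and the medians of the 2 lists were both -0.27.

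Other translocation genes gave 5 of 32 lower with a median of -0.36, where 9.56% of all genes were lower in the 12-array model. The 5 included the signal recognition particle subunit SRP19 (-1.16 ± 0.29), EMC2 (-0.97 ± 0.24) and SRPRB (-0.74 ± 0.22), at limma adjusted p = 0.0265, 0.0279 and 0.0466. Other folding helpers gave 4 of 29 lower with a median of -0.32, against the same 9.56% of all genes. The 4 included the prolyl isomerase FKBP14 (-1.85 ± 0.41), DNAJC1 (-1.22 ± 0.29) and HSPA13 (-0.98 ± 0.23), at limma adjusted p = 0.0208, 0.0228 and 0.0236. With Ra 48 h replicate 2 left out, the translocation list gave 3 lower (9.38%) and 2 higher and the folding list 4 lower (13.8%) and 2 higher, against 8.13% and 11.2% of all genes, and both medians were -0.14.

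N-glycosylation genes gave 2 lower and 1 higher of 32 with a median of -0.35. These counts are close to the shares of all genes (9.56% lower and 3% higher). GFPT1, the first enzyme of the hexosamine pathway, fell by 1.60 ± 0.31, ALG2 by 1.05 ± 0.28, and PRKCSH, the regulatory subunit of glucosidase II, rose by 0.80 ± 0.17 (limma adjusted p = 0.0129, 0.0351 and 0.0174). Without Ra 48 h replicate 2 the list gave 1 lower and 3 higher with a median of -0.08, where 8.13% of all genes were lower and 11.2% higher. The list of other stress sensors and bZIP factors gave 1 of 14 lower, CREB3L2 (-1.70 ± 0.50; limma adjusted p = 0.0451), with a median of -0.24. Without that array it gave 0 lower and 3 higher, and its median changed sign to 0.07.

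At 12 h the same 188 genes gave 15 higher and 18 lower in the 6-array fit, with a median of 0.02 log2 units, close to the shares of all genes (7.34% and 6.25%). In the 12-array model none of those named next passed, the lowest limma adjusted p being 0.523 for EMC6. The largest called differences of that 6-array fit were CREB3L2 (0.71) and MAP3K5 (0.58) among stress factors, and DDIT4 (-0.66) and SESN2 (-0.51) in the PERK and ATF4 branch. They were SDF2 (-0.41) and HSPA13 (0.37) among folding helpers, EMC6 (-0.45) and CAMLG (0.42) in translocation, and ALG14 (-0.65) and OSTC (0.37) in glycosylation. In degradation they were EDEM2 (0.54) and HERPUD2 (0.48), and in export BET1 (0.51) and SEC31A (0.34). Their limma adjusted p ran from 0.0114 for OSTC to 0.0364 for SEC31A. In mean level CREB3L2, a membrane-bound relative of ATF6, was thus higher at 12 h and lower at 48 h, as XBP1 and DNAJB9 were. The calls come from different fits, the 6-array fit at 12 h and the 12-array model at 48 h. The call of CREB3L2 at 48 h was lost without Ra 48 h replicate 2.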

How the data were processed

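Total RNA of 12 HK-2 samples was measured on Affymetrix 3′ expression arrays, 3 for each of the 4 groups that the labels give. The authors used GCRMA, per the submitters' processing notes, to correct background, normalize and summarise probe sets. Its version is not given in the sources used here. Judged by their range, the deposited values are log2 values. GCRMA shrinks low signals, so differences near the background depend on its model.

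Of 54675 probe sets, 41097 had exactly 1 symbol in the platform annotation, 1801 several and 11777 none. Those with at least 3 arrays at 5 log2 units were kept (17339), and the one with the highest mean over 12 arrays stood for its gene, giving 10050 genes. limma 3.58.1 in R 4.3.3 fitted 4 group means with an intensity trend (8 residual degrees of freedom), two-sided, with Benjamini-Hochberg adjustment over all 10050 genes and calls under 0.05. The code was tested on simulated data. Fits on the 6 arrays of a comparison, other filters, probe set rules, scalings, moderation, array weights, a replicate block and leaving out each array were alternatives. The blocked 6-array fit at 12 h and its leave-outs were added after seeing the data. The p-values set each difference against the spread between replicate arrays, which the 12-array model pools over the 4 groups without pairing. The median SD over the members was 0.14 and 0.11 log2 units at 12 h (control, Ra). At 48 h it was 0.68 and 0.44.

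Correlations of deviations from group means for same-numbered Ra and control arrays were 0.182, 0.421 and 0.344 at 12 h, so the numbers were taken to pair those samples, and 0.301, -0.219 and 0.097 at 48 h, where they were not.

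The members and all gene lists were chosen with earlier results of these data known. Array values are given for the sensor genes, for members called with Ra and for the 2 members of each role with the largest difference at 48 h. Of each other list, up to 3 called genes at 48 h and 2 at 12 h are named. Promoter windows are RefSeq's of GRCh38.p14 (35116 windows). A gene counted as matched if any of its windows held the motif. Plots were drawn with matplotlib 3.10.9.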

Additional observations from a re-analysis of the deposited data

How the results depend on the processing

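No member's difference between Ra and control turned sign as a called value under the alternatives run, and 31 members had the lower mean at 48 h in each alternative that held the same 32 genes. The number called was less stable. For Ra against control at 48 h, 11 of 32 members in the 12-array fit (12.6% of all genes) became 2 of 33 with no filter (1.65%). A filter at 7 log2 units gave 19 (17%). Without the probe set types that can cross-hybridise, 7 of the 24 members left were called (12.6%). Moderation without the intensity trend gave 7 (11.1%). Quantile normalization gave 16 (30%) and centred arrays 14 (28.5%). Array weights gave 26 (51.8%) and the replicate block within each time 18 (13.3%). The fit on 6 arrays called 0 members and 0 genes. Leaving out 1 array gave 0 to 29, at the shares of all genes given above. For 12 h, 0 became 4 with array weights (23.5% of all genes called), 5 on 6 arrays (13.6%), 13 on 6 arrays with the replicate block (23.4%) and 1 to 6 on 6 arrays without 1 of them (2.92% to 13.8%). For the difference of the effects, 0 became 1 with the 7-unit filter (0.518% of all genes) and 7 with quantile normalization (9.39%). Centred arrays gave 8 (8.52%), array weights 27 (44.4%) and the replicate block 1 (0.358%). Leaving out 1 array gave 0 to 21, where 5.69% of all genes passed at 21. For control cells over time, 15 (19.5% of all genes) became 8 of 33 with no filter (6.34%) and 30 with array weights (61%). Quantile normalization gave 22 (36.9%) and centred arrays 20 (35.4%). Leaving out 1 array gave 6 to 28, at the shares given above. Where a filter acts, the number of genes adjusted over differs. The cause of the other changes was not tested. Ra over time gave 0 throughout. At 48 h the pairing by number was not borne out, and its block is given for completeness. Precision at 48 h is limited by 3 arrays a group and a median SD over the members of 0.68 log2 units in control cells.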

Other observations

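Other probe sets of the members gave the same direction at 48 h in all 41 cases that passed the filter, from 20 genes, and in 34 of the 41 at 12 h. Their sizes differed. At 48 h a second HSPA5 probe set gave -3.30 log2 units against -1.53 for the one used, 3 further DNAJC3 probe sets gave -2.29 to -3.25 against -1.69, and a second DERL2 probe set gave -1.93 against -1.02. The other 2 DNAJB9 probe sets gave -2.32 and -2.88, against -2.22. In control cells the second HSPA5 probe set was 3.15 log2 units higher at 48 h than at 12 h, against 1.55. The second HSPA5 probe set had a mean of 6.98 over the arrays, against 14.19. The 3 further DNAJC3 probe sets had means of 8.54, 6.48 and 5.42, against 9.14, and the one at 5.42 reached 5 log2 units on 7 arrays. The second DERL2 probe set had a mean of 6.38, against 11.04.

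Outside the members, the lists for folding helpers, translocation, glycosylation, degradation and export shared the order of the control arrays at 48 h at smaller size. Their mean levels relative to control cells at 12 h were 0.31 to 0.67 log2 units on replicate 1 and -0.13 to 0.13 on replicate 3. The list of other stress sensors and bZIP factors gave 0.11, -0.01 and -0.22. On Ra 48 h replicate 2, the array that stood apart in scale, these lists and that one lay at -0.52 to -0.88.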
